A study of Mus musculus with 4 samples.

Results

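The 8 miRNAs described here are better known from liver, gut, endocrine tissue and skin than from brain. They are mmu-miR-122-5p of the liver, mmu-miR-192-5p, mmu-miR-192-3p, mmu-miR-194-5p and mmu-miR-215-5p of gut, liver and kidney, mmu-miR-203-3p and mmu-miR-205-5p of skin and other lining epithelia, and mmu-miR-375-3p of endocrine cells; the prefix mmu, for mouse, is left out of most names below. They were chosen by name, and all 8 were found among the 1038 known miRNAs listed for the medial prefrontal cortex (mPFC). The question was which of them were abundant in this cortex and which were near zero, and whether any differed between mice under chronic unpredictable mild stress (CUMS) and controls.

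Small RNAs were sequenced in 2 libraries from CUMS mice and 2 libraries from control mice. The strain of all is C57BL/6 per the labels and C57BL/6J per the authors. The male mice entered the experiment at postnatal day 21 and had 1 week of adaptation. The CUMS mice then lived through 3 weeks of varied mild stressors, while the controls were left unstressed. Among the stressed mice, only those with changes in all of the sucrose preference, Y-maze and forced swimming tests were taken, so the CUMS group stands for mice that responded to the stress and not for all stressed mice. RNA was isolated from both sides of the mPFC of each mouse. Whether a library held 1 mouse or several is not given in the sources used here, and the p-values measure only the spread between these libraries. The tissue was bulk cortex, in which fewer cells of a type and less RNA per cell cannot be told apart.

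Levels are given as normalised counts, that is reads divided by the size factor of the library, or as reads. The deposited table used here has group means and no columns of single libraries, and the reads of each library were solved from the means. The letters a and b only tell the libraries of a group apart, because the means do not show which replicate is which, and paired values below are those of library a and then library b. The libraries held from 9589323 to 10783592 reads on known miRNAs. A count of 0 allows up to 3 reads, which is from 0.278 to 0.313 CPM in these libraries, where CPM is the reads after scaling the miRNA reads of a library to 1000000. All intervals on reads cover counting error only, since the reads carry no molecular identifiers. Adapters were joined by RNA ligase, which takes up some sequences more readily than others, so a comparison of different miRNAs is one of reads and not of molecules in the tissue.

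The labelled tissue was checked against 6 miRNAs of neurons and cortex, miR-124-3p, miR-9-5p, miR-9-3p, miR-128-3p, miR-138-5p and miR-137-3p. All 6 were abundant, from miR-137-3p with a mean of 933 normalised counts over the libraries to miR-9-5p with 598797. Control library b stood apart from the other libraries. It held the highest value of all 8 miRNAs of a list for epithelial and sensory cells, which are miR-200a-3p, miR-200b-3p, miR-200c-3p, miR-141-3p, miR-429-3p, miR-182-5p, miR-183-5p and miR-96-5p. The summed level of this list was 1004810 normalised counts there, against 4047 in control library a, 4936 in CUMS library a and 7329 in CUMS library b. The most abundant miRNA of the list was miR-182-5p, which took 8.92% of the miRNA reads of control library b and from 0.0373% to 0.0685% elsewhere. Among the 359 miRNAs with a mean of at least 50 normalised counts, 7 were over 10 times as high in control library b as in any other library. All 7 belonged to this list, and 0 of them to the 8 miRNAs of liver and epithelia. The list and the members were chosen with earlier results of these data known, so this match is a description and not a test.

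A miRNA is cut from an RNA hairpin, and as a rule one arm of the hairpin is loaded into an Argonaute protein while the other is degraded. The loaded strand finds its target mRNAs mainly through the seed near its 5′ end. In liver and gut, miR-192 and miR-194 are made from shared transcripts under hepatocyte nuclear factors, miR-122 is the dominant miRNA of hepatocytes, miR-203 restrains proliferation as keratinocytes differentiate, miR-205 keeps the epithelial state by repressing ZEB factors, and miR-375 controls hormone secretion in pancreatic islets and is also high in the pituitary.

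The mature sequences are shown because the comparison of levels below turns on which members share a seed and which come from the same hairpin or cluster. Sequences of 6 of the 8 miRNAs were matched by name in RefSeq (GRCm38.p6); miR-122-5p and miR-375-3p are named only. Each is written 5′ to 3′, with the seed, bases 2 to 8, in capitals. The 6 sequences hold 5 different seeds, and the pair that shares one comes first.
miR-192-5p: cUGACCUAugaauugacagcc
miR-215-5p: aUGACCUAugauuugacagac
miR-194-5p: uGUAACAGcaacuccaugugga
miR-192-3p: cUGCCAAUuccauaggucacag
miR-203-3p: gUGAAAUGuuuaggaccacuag
miR-205-5p: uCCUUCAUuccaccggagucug

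With positions counted from the 5′ end, miR-192-5p and miR-215-5p differ by C1A, A12U and C20A, where the first letter is the base of miR-192-5p. The authors matched reads without mismatch and asked for an overlap of at least 16 nt. No stretch of 16 nt in miR-192-5p is free of these 3 differences, so an exact read of either miRNA could be told from the other. Among the miRNAs of the table with a sequence, no further one shared a seed with any of the 6.

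The hairpin of miR-192 lies on the plus strand of chromosome 19 (chr19:6264844-6264932) between genes, 2509 bp from the autophagy gene Atg2a. The hairpin miR-194-2 (chr19:6264643-6264728) lies on the same strand, with 115 bases between them. A second pair lies on chromosome 1, where miR-194-1 (chr1:185313319-185313385) and miR-215 (chr1:185313581-185313692) are 195 bases apart. This pair sits in the long noncoding RNA 2010103J01Rik, miR-194-1 in an intron and miR-215 in an exon, opposite to an intron of Iars2, which encodes a mitochondrial tRNA synthetase. Both miR-194 hairpins give the same mature miR-194-5p, so its reads cannot be split between the loci. The hairpin of miR-203 (chr12:112130880-112130955) lies between genes, and RefSeq also lists a hairpin on the opposite strand that gives miR-203b. No miR-203b was listed for the cortex, and the strand used in counting is not given in the sources used here. The hairpin of miR-205 (chr1:193507463-193507530) lies on the minus strand in an exon of the long noncoding RNA 4631405K08Rik. The hairpin of miR-375 (chr1:74900658-74900721) lies on the minus strand between genes, 1350 bp from Cfap65, a gene of cilia.

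The 8 miRNAs spread from rank 39 to rank 909 by level in the cortex. By the mean over the 4 libraries, 4 of them were abundant, that is at or above 204.5 normalised counts, the upper quartile of all 1038 miRNAs. These were miR-192-5p, miR-375-3p, miR-203-3p and miR-194-5p. Only miR-215-5p was intermediate. The other 3, miR-205-5p, miR-122-5p and miR-192-3p, had a mean under 10 normalised counts and were near zero, as were 520 (50.1%) of all miRNAs. The classes of all 8 miRNAs were the same with any of the libraries left out.

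**Figure D1:**
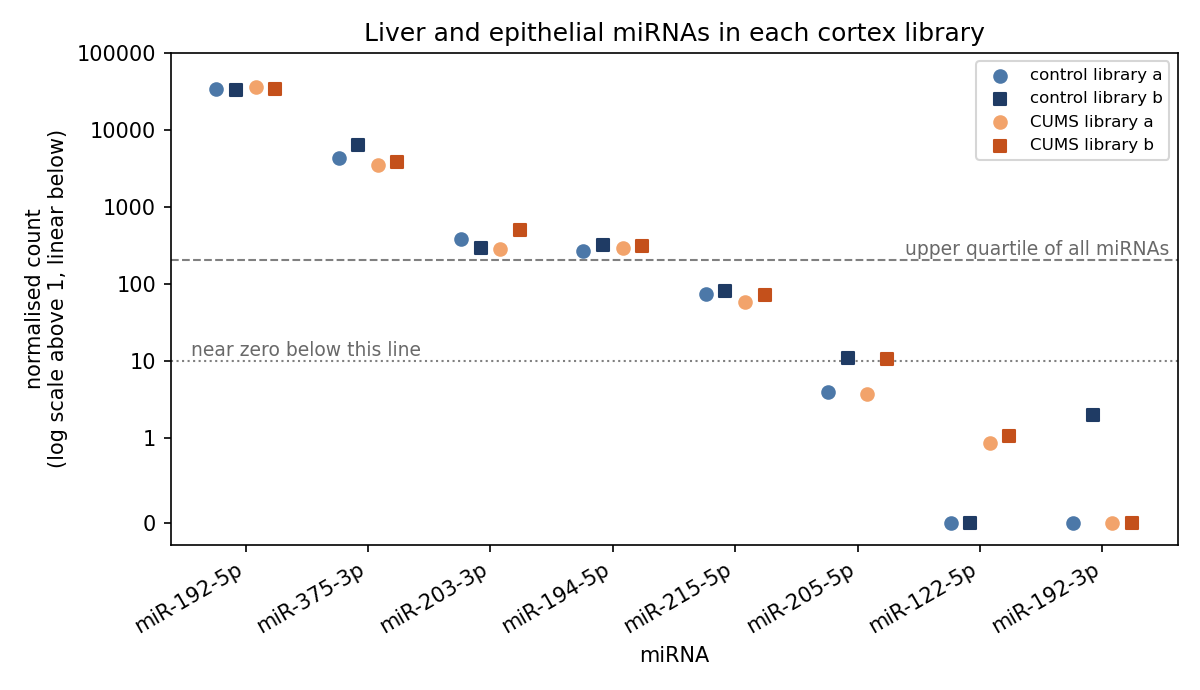
Normalised count (vertical axis, log scale above 1 and linear below) of each of the 8 miRNAs (horizontal axis, by falling mean) in the 2 control and 2 CUMS libraries, 1 point per library. The dashed line is the upper quartile of all miRNAs, 204.5, and the dotted line is 10; miR-192-5p lies between 33356 and 36607 in the 4 libraries, while miR-122-5p and miR-192-3p lie at 2 or below.

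The miRNA miR-192-5p, which marks the epithelium of gut, liver and kidney, was the highest of the 8. It had 34185 and 33356 normalised counts in the 2 controls, against 36607 and 34200 under CUMS. The 4 libraries were close together, and the highest was 1.1 times the lowest. It ranked 39 among the 1038 miRNAs by mean, with a share from 0.309% to 0.373% of all miRNA reads. Of the reads on the 8 miRNAs together, it took from 82.4% to 89.8% in a library. Its level was near that of miR-124-3p, the most specific miRNA of neurons, which ranked 44 with 25922 and 23143 normalised counts in the controls against 29393 and 35217 under CUMS. There were more reads of miR-192-5p than of miR-124-3p in 3 of the 4 libraries, with a ratio from 0.971 to 1.44.

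The endocrine miRNA miR-375-3p came next and ranked 99. It had 4275 and 6431 normalised counts in the 2 controls, against 3513 and 3798 under CUMS. Control library b was the highest of the 4, and each CUMS library lay below each control library. The range of miR-375-3p did not meet that of miR-192-5p above it or that of miR-203-3p below it. Reads of miR-192-5p exceeded those of miR-375-3p by 5.19 to 10.4 times within a library.

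The keratinocyte miRNA miR-203-3p ranked 232, with 384 and 294 normalised counts in the 2 controls, against 287 and 499 under CUMS. CUMS library b was the highest and CUMS library a the lowest, so the range of CUMS enclosed that of control. The gut miRNA miR-194-5p ranked 244, with 264 and 324 normalised counts in the controls against 295 and 307 under CUMS. The CUMS libraries lay between the control libraries. These neighbours in the order did not differ beyond their spread, since miR-203-3p was above miR-194-5p in 2 of the 4 libraries and their ranges overlapped.

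The only intermediate one, miR-215-5p, ranked 334. It had 73.4 and 80.0 normalised counts in the 2 controls, against 58.4 and 71.0 under CUMS. Each CUMS library lay below each control library, and the range stayed clear of miR-194-5p above it and of miR-205-5p below it. The fall from miR-194-5p to miR-215-5p was 4.21-fold in the means.

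Among those near zero, miR-205-5p of basal and stratified epithelium had 4 and 11 reads in the 2 controls, against 4 and 10 under CUMS. Each group held a library with few and a library with more reads. The ratio of normalised counts between its control libraries was 2.81 with a 95% exact counting interval from 0.833 to 12.1. The liver miRNA miR-122-5p had 0 reads in both control libraries and 1 read in each CUMS library, at most 0.104 CPM, with a Wilson 95% upper bound of 0.591 CPM in CUMS library b. The second arm of the miR-192 hairpin, miR-192-3p, had 2 reads in control library b and 0 in the other 3. Both were at or under the floor of 3 reads in every library, and a difference between the groups was not detectable at this depth.

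**Figure D2:**
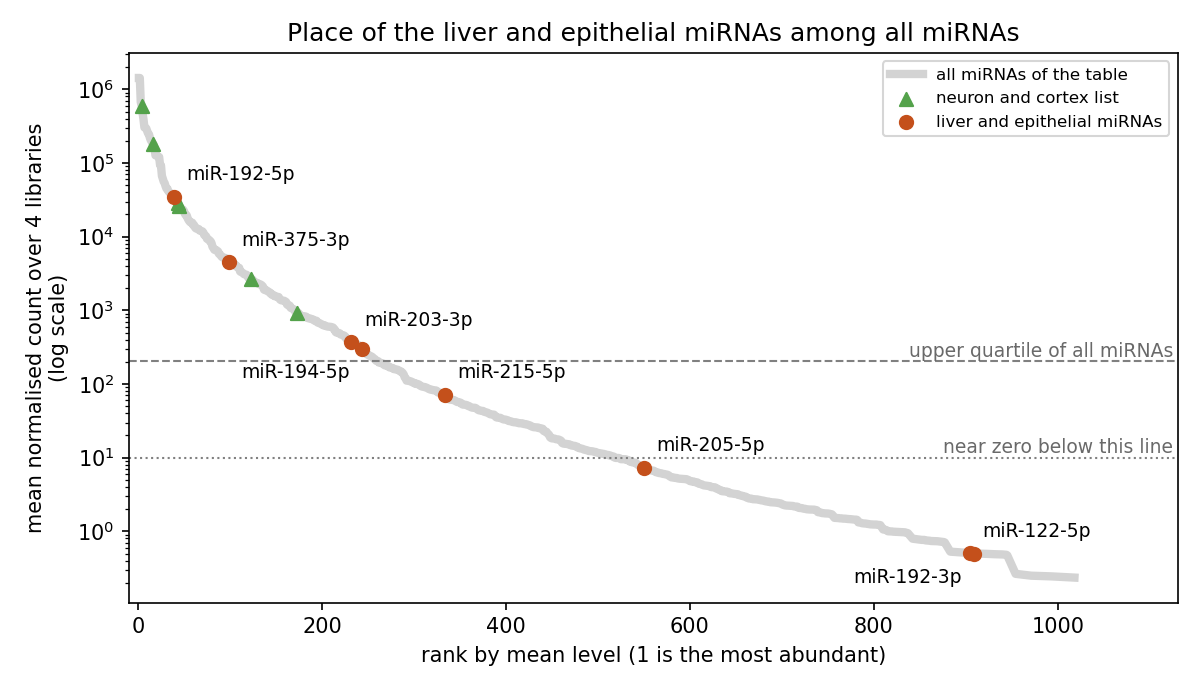
Mean normalised count over the 4 libraries (vertical axis, log scale) against the rank of each of the 1038 miRNAs (horizontal axis, 1 is the most abundant; grey curve), with the 8 liver and epithelial miRNAs as circles and the 6 miRNAs of neurons and cortex as triangles. The dashed line is the upper quartile and the dotted line is 10; miR-192-5p at rank 39 lies just above miR-124-3p at rank 44, and miR-122-5p lies at rank 904.

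The pairs that share a hairpin, a cluster or a seed differed widely in level. From the miR-192 hairpin, 139476 reads of the 5p arm and 2 reads of the 3p arm were counted over the 4 libraries. The ratio was 69738, with an exact counting interval from 19305 to 575855. Both reads of the 3p arm were in control library b, so the ratio has no finite value without that library. The arms of the other hairpins were less uneven. The ratio of miR-203-3p to miR-203-5p was 293 (125 to 902) from 1463 and 5 reads, 3 of the 5 in CUMS library b, that of miR-215-5p to miR-215-3p was 25.8 (14.2 to 52.3) from 284 and 11 reads, and that of miR-194-5p, which has a second source, to miR-194-2-3p was 24.9 (18.7 to 34) from 1197 and 48 reads. The arms miR-122-3p, miR-194-1-3p, miR-205-3p and miR-375-5p were not listed and have no value here.

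Although miR-192 and miR-194-2 lie 115 bases apart, reads of miR-192-5p outnumbered those of miR-194-5p by 103 to 129 times within a library, both loci of miR-194 included. Against miR-215-5p, which has the same seed as shown above, the excess of miR-192-5p was from 417 to 627 times. Of the reads with the seed UGACCUA in these 2 miRNAs, 0.203% were miR-215-5p. Reads of miR-194-5p, again from both loci, were from 3.60 to 5.05 times those of miR-215-5p.

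The comparison of CUMS with control used the 6 miRNAs that had at least 5 reads in some library; miR-122-5p and miR-192-3p did not pass this filter. By limma on log2(normalised count + 1), 0 of the 6 had an adjusted p under 0.05, and so had 0 (0%) of all 719 miRNAs tested. At an unadjusted p under 0.05, limma took 0 of the 6 and 28 (3.89%) of the 719. With TMM scaling, limma took 1 of the 6, which was miR-375-3p, and 29 of the 719. The quasi-likelihood test of edgeR, run on recovered reads, had 0 of 719 at the adjusted and 30 (4.17%) at the unadjusted threshold, and the DESeq2 Wald test 0 and 24 (3.34%). Both count tests took 1 of the 6 at the unadjusted threshold, which was miR-375-3p. Fitted differences were above 0 for 3 of the 6 and below 0 for the other 3. Their median was -0.0027 on the log2 scale and that of all 719 miRNAs 0.0050, and the median size of the difference was 0.12 for the 6 and 0.28 for the 719. These sizes compare sets of unlike level, since 5 of the 6 had a mean of at least 50, against 359 of the 719.

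The difference of miR-375-3p was -0.52 on the log2 scale (95% interval -1.05 to 0.00, limma adjusted p = 0.835, n = 2 against 2), and the authors' means were 5353 in control and 3656 in CUMS, a ratio of 0.683. Its size rested on control library b, which had 1.5 times (1.45 to 1.56) the normalised count of control library a. Without control library b the difference was -0.23, and without control library a it was -0.82. Of the 359 miRNAs with a mean of at least 50, 36 had control libraries at least as far apart as miR-375-3p. The direction was the same in both CUMS libraries and under the scalings by CPM and TMM.

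The lists for choroid plexus and striated muscle each held a miRNA that was highest in control library b and lower in both CUMS libraries, as miR-375-3p was, and another that was not. The choroid plexus list of 2 miRNAs summed to 16942 and 22015 normalised counts in the 2 controls, against 15959 and 12627 under CUMS. Its most abundant miRNA was miR-204-5p, which had this pattern, whereas miR-211-5p had fewer reads in control library b, 20, than in control library a, 127. In the striated muscle list, miR-133a-3p had the pattern, with 224 and 348 normalised counts in the controls against 194 and 189 under CUMS, while miR-1a-3p had 2 and 0 reads in the controls against 0 and 8 under CUMS, and miR-206-3p was not listed. The pattern was also seen in miR-142a-3p of myeloid cells and in miR-215-5p. Of all 719 miRNAs tested, 167 (23.2%) were highest in control library b, and 17.1% had each CUMS library below each control library. The part of choroid plexus and striated muscle in the values of miR-375-3p was not tested.

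For the gut miRNAs, the fitted differences were small beside their intervals. That of miR-192-5p was 0.07 (-0.25 to 0.39, adjusted p = 0.947), so that a change of more than 0.39 on the log2 scale lies outside the interval. The difference of miR-192-5p was 0.02 without CUMS library a, 0.12 without CUMS library b and 0.14 with CPM scaling. Each CUMS library lay above each control library, but by 34200 against 34185 at the nearest. For miR-215-5p the difference was -0.25 (-0.91 to 0.42, adjusted p = 0.886). Without CUMS library a it was -0.11, and without CUMS library b it was -0.39. For miR-194-5p the difference was 0.04 (-0.46 to 0.54, adjusted p = 0.955). The sign of miR-194-5p turned without control library a, to -0.11, and was -0.0012 in the edgeR test.

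For the epithelial miRNAs, the spread within a group was larger than the difference between the groups. The difference of miR-203-3p was 0.17 (-0.57 to 0.92, adjusted p = 0.943), and it turned to -0.23 without CUMS library b and to -0.02 without control library b. Within CUMS, library b had 1.74 times (1.5 to 2.01) the normalised count of library a. For miR-205-5p the difference was -0.05 (-1.94 to 1.85, adjusted p = 0.982), and it turned to 0.60 without control library b, to 0.59 without CUMS library a and to 0.020 with CPM scaling. These reads do not resolve even a large change of miR-205-5p.

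Of the 6 miRNAs, 3 had groups that did not overlap, against 243 (33.8%) of the 719. Each CUMS library lay below each control library for 2 of them, miR-375-3p and miR-215-5p, against 17.1% of the 719, and above for 1, miR-192-5p, against 16.7%. A two-sided exact permutation test of 2 libraries against 2 cannot give a p below 0.333.

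**Figure D3:**
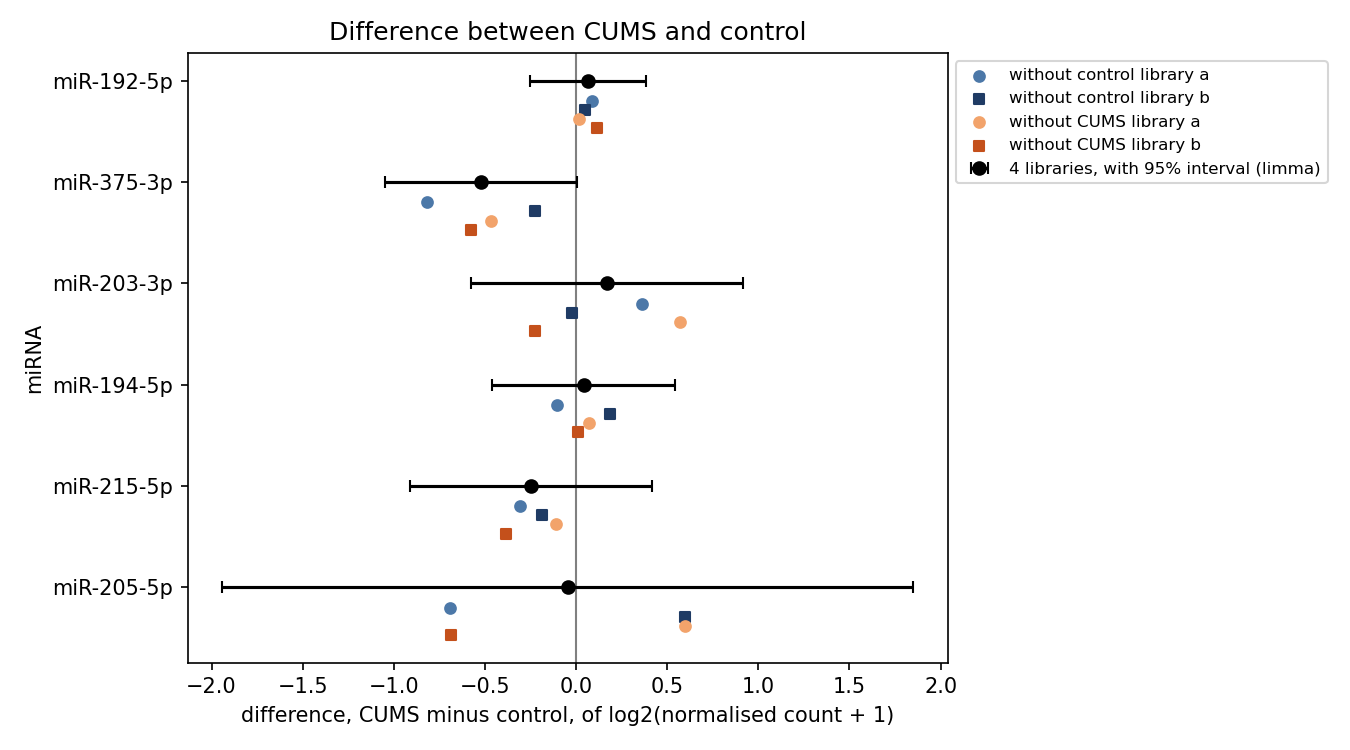
Difference between CUMS and control of log2(normalised count + 1) (horizontal axis) for the 6 miRNAs tested (vertical axis, by falling mean). Black circles with bars are the limma estimates from the 4 libraries with 95% intervals, and coloured points are the estimates without the library named in the legend. Every interval includes 0; the estimate of miR-375-3p moves from -0.82 to -0.23 with the control library left out, and that of miR-205-5p from -0.69 to 0.60.

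The excess of the epithelial and sensory list in control library b was not seen at that size in the epithelial members. Whereas miR-200b-3p was 121 times as high there as in control library a and miR-183-5p 225 times, miR-203-3p was 0.764 times and miR-205-5p 2.81 times as high. Against the highest of the other libraries, control library b had 1.04 times the normalised count of miR-205-5p. For miR-192-5p this ratio to the highest other library was 0.911, for miR-194-5p 1.05, for miR-215-5p 1.09 and for miR-375-3p 1.5. Of the 8 miRNAs, 5 had their highest value in control library b, against 257 (24.8%) of all 1038. Among the 5, miR-192-3p had only 2 reads there and 0 elsewhere, and miR-205-5p had 11 reads there against 10 in CUMS library b. In the epithelial and sensory list, 8 of 8 were highest there, and the smallest ratio among those with reads elsewhere was 84.6 for miR-429-3p. That list was chosen with earlier results of these data known.

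**Figure D4:**
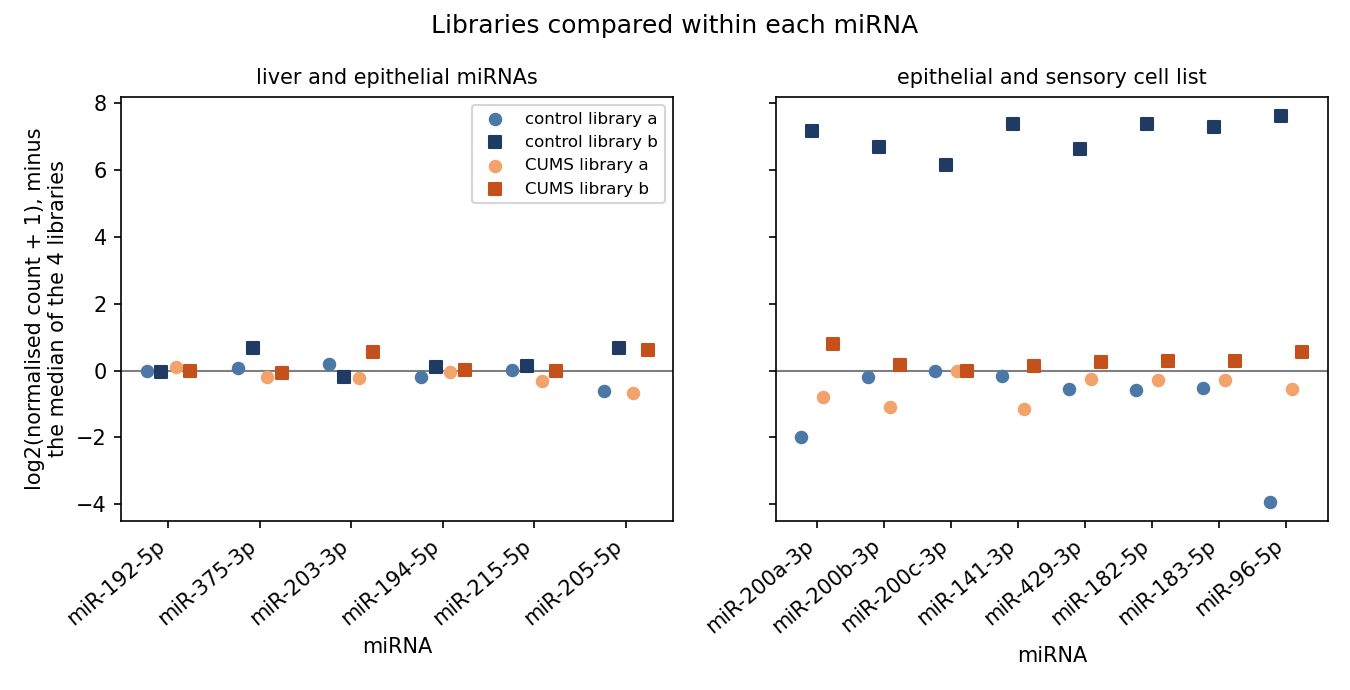
Log2(normalised count + 1) of each library minus the median of the 4 libraries (vertical axis) for the 6 tested liver and epithelial miRNAs (left) and the 8 miRNAs of the epithelial and sensory cell list (right), 1 point per library. Control library b (dark blue squares) stands far above the others for all 8 on the right, and for the 6 on the left it is at most 1.5 times the highest other library.

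Further miRNAs of pancreas, liver and skin were set beside the members. Of 5 on this list, 4 were tested, 0 had an adjusted p under 0.05 and 2 had an unadjusted one under 0.05 by limma, against 28 (3.89%) of the 719. The acinar pancreas miRNA miR-216a-5p had 24 and 20 reads in the controls against 10 and 6 under CUMS, and miR-216b-5p had 4 and 5 reads in the controls against 1 and 0 under CUMS. Each CUMS library lay below each control library for these and for miR-217-5p, which is clustered with them, as for 17.1% of the 719. However, miR-216b-5p passed the filter only through the 5 reads of control library b. Its order can therefore not be read as a lower level under CUMS. The fitted difference was -1.37 (-2.53 to -0.22, adjusted p = 0.835) for miR-216a-5p and -2.20 (-3.44 to -0.97, adjusted p = 0.835) for miR-217-5p. These were the 2 under the unadjusted threshold, and as neighbours in a cluster they need not be separate results. The unadjusted p of miR-216a-5p was 0.034 by edgeR and 0.126 by the DESeq2 Wald test. For miR-217-5p it was 0.0057 by edgeR and 0.0051 by the DESeq2 Wald test. The liver miRNA miR-802-5p had 4 and 3 reads in the controls against 2 and 3 under CUMS, near zero like miR-122-5p, and the skin miRNA miR-31-5p had 1598 and 1344 normalised counts in the controls against 1579 and 1564 under CUMS.

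For the 5 miRNAs with a mean of at least 50, the most similar profiles over the 4 libraries were sought among the other 358 miRNAs at that level, as the Euclidean distance between centred log2(normalised count + 1) values. The nearest to miR-203-3p was miR-184-3p at a distance of 0.0182, with 361 and 277 normalised counts in the controls against 274 and 469 under CUMS. It was followed by miR-493-5p at 0.0402 and miR-425-3p at 0.0643, and the median distance to all others was 0.715. CUMS library b was the highest for each of these 3 miRNAs, as for miR-203-3p. They were chosen for a similar profile, so the shared highest library is not a separate result.

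The nearest to miR-375-3p were miR-133a-3p at 0.115, miR-130b-5p at 0.181 and miR-34b-5p at 0.20. Each of them was highest in control library b, which again is not a separate result. For miR-194-5p they were miR-186-5p at 0.0323, miR-322-3p at 0.0749 and miR-674-3p at 0.0803. The profile of miR-215-5p was nearest to miR-338-3p at 0.101 and miR-219a-5p at 0.104, both known from oligodendrocytes, and then to miR-99b-3p at 0.114. The counting interval of miR-215-5p is wide beside these distances, with a ratio of control library b to a of 1.09 (0.785 to 1.51). Its nearest profiles are therefore not resolved, and a part of oligodendrocytes was not tested. Nearest to miR-192-5p were miR-106b-3p at 0.0365, miR-434-5p at 0.0504 and miR-411-5p at 0.0528, with a median distance to all others of 0.359. With 4 libraries, such distances describe these libraries only.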

How the data were processed

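After dropping reads of poor quality, adaptors, contaminants and other noncoding RNAs, the authors matched reads to mouse miRBase precursors without mismatch and counted them per mature miRNA. The submitters' processing notes name Bowtie, DESeq and mm10 without versions. The deposited signal is, for each group, the mean over its libraries of reads after division by size factors from DESeq; the column names carry no groups, and the assignment rests on the study printing these means under its control and CUMS headings. The overall mean, fold change, log2 fold change and p-values deposited beside it were not used. Whole reads were recovered by solving each mean as whole reads times 2 steps: 100% of 1038 values in both groups were whole within a relative residual of 1e-09, and for 2 control values another pair came within 10 times the residual. Libraries of a group differed by far more than counting error (chi-square over its degrees of freedom, 2105 in control and 290 in CUMS). The deposited signal is a normalised unit, so the main test was limma 3.58.1 (trend) in R 4.3.3 on log2(normalised count + 1) of the miRNAs that reached 5 reads in some library, with Benjamini-Hochberg adjustment. Count tests on the recovered reads, which called 0 of 719 miRNAs each, used edgeR 4.0.16 and DESeq2 1.42.0. The tests and the recovery were tested on simulated data, where limma, first tried with scaling by totals as in CPM, made more false calls than with the size factors used here. Near zero means a mean under 10, and abundant at or above the upper quartile. All 8 members, the miRNAs of 8 marker lists and the 3 nearest profiles of each member with a mean of at least 50 were named. The members and lists were chosen with earlier results of these data known. Sequences and hairpins came from RefSeq GRCm38.p6 and host genes from GENCODE M21; hairpin coordinates were the same in both. Tables and figures were made with Python 3.11.15, scipy 1.17.1 and matplotlib 3.10.9. Sequencing of mRNAs was not analysed here.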

Additional observations from a re-analysis of the deposited data

How the results depend on the processing

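With limma, 0 of 719 miRNAs and 0 of the 6 tested members were called under the other pseudocounts and scalings and with each library left out, as with DESeq2 and edgeR on all libraries; without a filter 0 of 1038 and 0 of 8 were called, and with a mean of at least 50, 0 of 359 and 0 of 5. In an alternative chosen after seeing the data, edgeR with a library left out called 0 to 12 miRNAs; the 12, without control library a, held 0 members, and 11 of them were highest in control library b. The lone library of a group was then assumed to vary like the other group. Of 71 values of members' differences under alternatives, 64 kept their sign and 7 turned. The turned ones were miR-194-5p in the edgeR test (-0.0012), miR-205-5p with CPM scaling (0.020), and values with a library left out, whose ranges were -0.11 to 0.19 for miR-194-5p, -0.23 to 0.57 for miR-203-3p and -0.69 to 0.60 for miR-205-5p. Apart from the libraries left out, the cause was not tested. With near zero set under 5, miR-205-5p became intermediate, so that 2 were intermediate and 2 near zero; with abundant set at the median, miR-215-5p became abundant, and 0 were intermediate. No paired analysis was possible because the libraries recovered from the means cannot be given their replicate numbers. Depth limits miR-205-5p, miR-122-5p and miR-192-3p, with 29, 2 and 2 reads over the 4 libraries.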

Other observations

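The remaining marker lists add the levels of other cell types in the same libraries. The red cell list of 4 miRNAs, miR-486a-5p, miR-451a, miR-144-3p and miR-144-5p, summed to 119842 and 115264 normalised counts in the 2 controls, against 114665 and 135359 under CUMS. CUMS library b was the highest, as it was for miR-203-3p, and miR-144-3p had 94.9 and 63.0 normalised counts in the controls against 77.2 and 165 under CUMS. CUMS library b also held the highest sums of the myeloid and of the neuron and cortex lists below. It held the highest value of 215 (29.9%) of all 719 miRNAs tested. The part of red cells in the values of miR-203-3p was not tested. The myeloid list of 3 miRNAs, led by miR-142a-5p, summed to 1430 and 1234 normalised counts in the controls against 1396 and 1632 under CUMS. In this list miR-142a-3p had 49.9 and 63.97 normalised counts in the controls against 40.5 and 45.6 under CUMS, each CUMS library below each control library, and miR-223-3p of neutrophils had 25 and 5 reads in the controls against 4 and 14 under CUMS. The neuron and cortex list summed to 852314 and 725546 normalised counts in the controls against 816451 and 961155 under CUMS. By limma, 0 miRNAs of these lists had an adjusted p under 0.05 and 1 of the 13 tested had an unadjusted one under 0.05, against 28 (3.89%) of the 719. It was miR-124-3p of neurons, with a difference of 0.39 (0.02 to 0.77, adjusted p = 0.835). Its unadjusted p was 0.059 by edgeR and 0.034 by the DESeq2 Wald test.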
